A study of Mus musculus with 2 samples.

Results

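The endothelial cells of mouse colon tumours described here were 94 of the 13282 barcodes that passed the quality filter, 79 of 4387 in the library labelled KO and 15 of 8895 in the library labelled WT. Barcodes passed if they held 200 genes or more and if mitochondrial transcripts made up less than 20% of their UMIs (unique molecular identifiers, one per captured RNA molecule). Members were chosen by their own counts: a member held a UMI of at least 3 of the 8 endothelial markers Pecam1, Cdh5, Kdr, Plvap, Egfl7, Esam, Cldn5 and Vwf. It also held under 10 UMIs of Col1a1 and Col1a2 and under 10 of Epcam, Krt8 and Krt18 per 10000, and 0 UMIs of the leukocyte gene Ptprc. The share of members in a library depends on these limits and is not compared between libraries.

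Both libraries came from colon tumour tissue by single-cell RNA sequencing, with 1 library per genotype. The genotype ECM1Flox/Flox, Villin-Cre, labelled KO, has both copies of Ecm1 flanked by loxP sites and Cre recombinase under the Villin promoter, which is known to be active in intestinal epithelium. The genotype ECM1Flox/Flox, labelled WT, carries the same floxed copies without Cre. The labels name neither the animals' number, age and sex nor the tumour model, and 1 library per genotype allows no test: all intervals below are 95% intervals that cover counting error only.

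Endothelial cells line blood and lymphatic vessels, and tumours recruit them through vascular endothelial growth factor (VEGF) signalling to receptors such as Kdr and Flt1. Arteries, capillaries and veins differ in the genes they use, and leukocytes leave the blood mainly across venules, whose endothelium displays P-selectin, E-selectin and the chemokine-binding receptor Ackr1. Lymphatic endothelium is set apart by the transcription factor Prox1 and by secreting the chemokine Ccl21a.

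Members labelled KO held 912415 UMIs in all (median 11885 per member, 687 to 35982), against 55882 UMIs in members labelled WT (median 3595, 630 to 9211). In the members labelled WT a level of 100 counts per 1e6 UMIs (CPM) was 5.59 UMIs, so ratios between the libraries are imprecise for all but abundant genes. The libraries shared 17 barcode sequences, none of which belonged to a member. Xist, transcribed from the inactive X chromosome, had 814 UMIs in members labelled KO and 0 in those labelled WT, and the Y-linked Ddx3y had 0 and 7 UMIs. Sex therefore cannot be told apart from genotype. Ecm1 was not lower in the epithelial gate of the library labelled KO, the cells in which Villin-Cre acts: it stood at 41.6 CPM there and at 33.8 CPM in that of the library labelled WT, a ratio of 1.23 (1.14 to 1.33). The libraries are therefore called by their labels. The deleted exons are not given, so these counts may not check the deletion.

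Of the members labelled KO, 45 held 7 of the 8 rule markers and 13 held all 8, while 1 held 3 and 2 held 4. Of those labelled WT, 2 held 7 and 1 held all 8, while 3 held 3 and 1 held 4. These values chose the members and are given as a description. Just outside the marker threshold, 6 barcodes labelled KO and 6 labelled WT had 2 markers within the other limits, at 977 CPM and 726 CPM of the 8 markers together, against 8121 CPM in members labelled KO and 7337 CPM in members labelled WT. The limits on other cell types removed 112 of 191 barcodes labelled KO with at least 3 markers and 11 of 26 labelled WT. The 10 barcodes labelled KO that lay just over the keratin limit, at 10 to 20 per 10000, held 4066 CPM of the rule markers.

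A set of 3 barcodes stood apart from the other members and were kept, because the rule kept them. One member labelled KO held 3 UMIs of rule markers among 24256, 2093 UMIs of the antibody joining chain Jchain and 10718 UMIs of immunoglobulin genes, 44.2% of its total. A second held 2589 UMIs of haemoglobin and other erythroid genes, 43.5% of its 5946. The other held 286 UMIs of 8 pericyte and smooth muscle genes, 1.44% of its total. In no other member did the list of another cell type reach more than 0.494% of UMIs. All 3 were labelled KO. Results that rest on them are given with and without them.

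Endothelial genes that the rule did not use were high in the members of both libraries. The 16 other pan-endothelial genes summed to 9148 CPM in members labelled KO and to 7570 CPM in members labelled WT. In the library labelled KO the same genes summed to 860 CPM in the fibroblast gate (barcodes over the collagen limit), 202 CPM in the epithelial gate and 259 CPM in the immune gate (barcodes with Ptprc). Of the 15 that reached 100 CPM in members or another gate, 15 were at least 2-fold higher in members than in the highest other gate, against 10.1% of the 2866 genes compared in this way. Emcn, the sialomucin endomucin, stood at 917 CPM in members labelled KO and 555 CPM in members labelled WT, and at 46.9 CPM in the fibroblast gate of the library labelled KO. Mmrn2, a matrix protein of vessels, stood at 557 CPM in members labelled KO, 26.9-fold above the highest other gate, and at 412 CPM in members labelled WT. The members carried the transcripts of endothelium in both libraries, and since they were picked as endothelial this is a description.

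Upstream sequence is shown for 3 of these genes and for the venule genes Selp and Ackr1 described below, as examples of windows that hold a recognition core of endothelial transcription factors. The 250 bases before the transcription start are RefSeq sequence of build GRCm38.p6, 5′ to 3′ on the gene's strand. Capitals mark AGGAAG on either strand (CTTCCT on the other), a core recognised by ETS factors such as Erg and Fli1, which are active in endothelium. The windows are Emcn at chr3:137340828-137341077 (plus strand), Tie1 at chr4:118489850-118490099 (minus strand), Robo4 at chr9:37401722-37401971 (plus strand), Selp at chr1:164115014-164115263 (plus strand) and Ackr1 at chr1:173333504-173333753 (minus strand).
Emcn: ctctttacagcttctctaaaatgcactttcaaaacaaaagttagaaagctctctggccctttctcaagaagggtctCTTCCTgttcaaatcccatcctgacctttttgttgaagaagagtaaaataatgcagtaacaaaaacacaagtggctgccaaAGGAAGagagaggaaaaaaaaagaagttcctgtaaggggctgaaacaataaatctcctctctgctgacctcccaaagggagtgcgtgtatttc
Tie1: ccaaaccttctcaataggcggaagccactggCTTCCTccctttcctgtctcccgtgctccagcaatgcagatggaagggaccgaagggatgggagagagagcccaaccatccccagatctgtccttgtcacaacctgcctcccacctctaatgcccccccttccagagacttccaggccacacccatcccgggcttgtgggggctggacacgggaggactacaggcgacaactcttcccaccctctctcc
Robo4: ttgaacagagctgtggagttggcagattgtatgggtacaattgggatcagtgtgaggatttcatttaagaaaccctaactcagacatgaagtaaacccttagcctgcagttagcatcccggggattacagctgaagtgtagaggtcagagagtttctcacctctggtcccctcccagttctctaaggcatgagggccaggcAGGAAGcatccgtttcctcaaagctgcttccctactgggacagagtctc
Selp: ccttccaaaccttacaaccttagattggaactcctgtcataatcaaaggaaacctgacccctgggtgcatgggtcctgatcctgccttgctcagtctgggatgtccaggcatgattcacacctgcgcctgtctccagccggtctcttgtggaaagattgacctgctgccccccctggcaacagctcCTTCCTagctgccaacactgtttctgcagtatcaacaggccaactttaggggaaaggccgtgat
Ackr1: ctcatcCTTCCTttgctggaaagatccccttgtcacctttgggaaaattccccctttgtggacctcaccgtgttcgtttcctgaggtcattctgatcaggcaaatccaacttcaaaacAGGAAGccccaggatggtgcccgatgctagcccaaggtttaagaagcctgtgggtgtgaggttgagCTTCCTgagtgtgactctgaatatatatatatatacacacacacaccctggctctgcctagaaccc
A window was at hand for 7 of the 16 pan-endothelial genes and 3 of the 8 rule markers. The core occurred in 5 of the 7 pan-endothelial genes and 5 of the 6 venous genes that had a window. It also occurred in 6 of 10 leukocyte adhesion genes, in 1 of 3 rule markers and in 1 of 7 lymphatic genes. The venous and leukocyte adhesion lists share Ackr1, Selp, Sele and Vcam1. Of all 27025 windows of this length 29.2% held the core. These are letter matches in short windows and say nothing of binding.

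**Figure D1:**
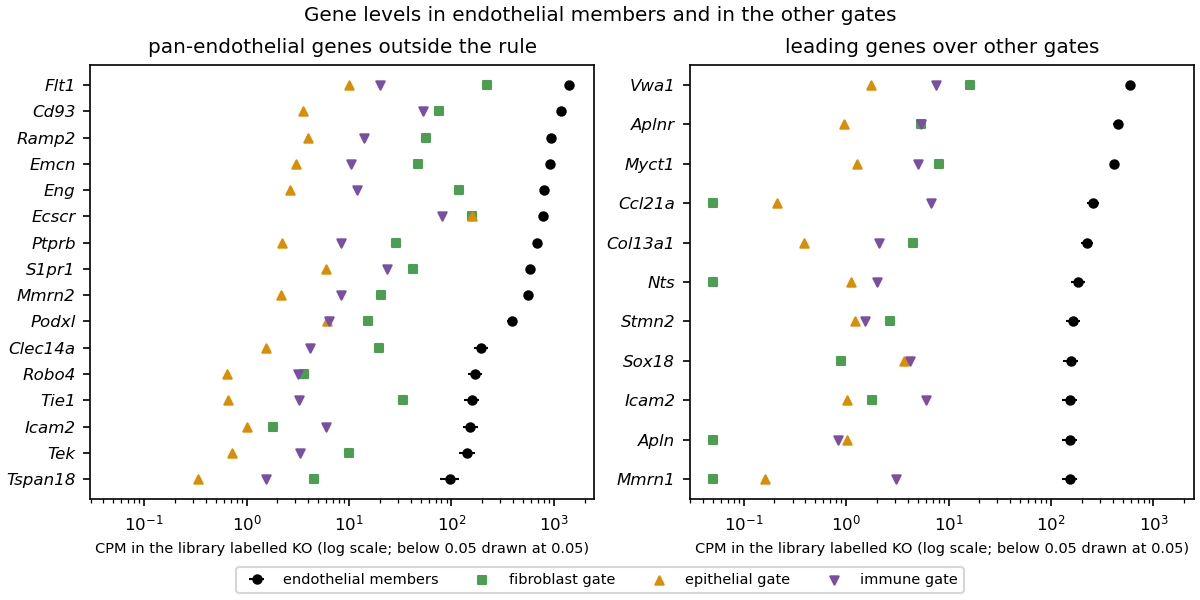
CPM (log scale) of each pan-endothelial gene outside the rule (left) and of the leading genes over other gates without haemoglobins (right) in the library labelled KO. Black points with 95% Poisson intervals are endothelial members; squares, upward triangles and downward triangles are the fibroblast, epithelial and immune gates, and members lie to the right for each gene shown.

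The genes furthest above every other gate in the library labelled KO were ranked by the lower bound of the ratio, among genes with at least 100 UMIs in members. Apln, the ligand apelin that sprouting vessels release, had 139 UMIs in members labelled KO (152 CPM) and 8 UMIs in members labelled WT (143 CPM). It lay 150-fold above the highest other gate, the epithelial one at 1.01 CPM, and 18 of 79 members labelled KO and 3 of 15 labelled WT held a UMI of it. Its receptor Aplnr, carried by 51 members labelled KO and 3 labelled WT, lay 82.5-fold above the highest other gate. Sox18, a transcription factor of vessel formation, lay 37.2-fold above, and Icam2, an adhesion molecule of resting endothelium, 25.6-fold. Myct1, Vwa1, Col13a1 and Stmn2 lay between 36.0-fold and 61.2-fold above. The lymphatic genes Nts, Mmrn1 and Ccl21a also led, from 4 members labelled KO. The haemoglobin genes Hba-a1, Hba-a2, Hbb-bs and Hbb-bt led through 1 barcode: without the 3 barcodes named above they lay below the highest other gate, and the count of genes at least 2-fold above it was 306 in place of 290.

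Lymphatic endothelium made a small and sharply separate group. Of the 8 lymphatic genes, 4 members labelled KO held 7 or 8 and 3 members labelled WT held 8, while no other member held more than 2. Mmrn1, Ccl21a, Nts and Reln had UMIs in these 7 members and in no other. Mmrn1, a secreted multimerin, had 24, 48, 35 and 32 UMIs in the 4 members labelled KO and 13, 29 and 19 in the 3 labelled WT. Ccl21a, which draws dendritic cells and naive T cells into lymphatics, had 93, 50, 46 and 46 UMIs in those labelled KO and 43, 2 and 9 in those labelled WT. Prox1 was found in all 7, with 2 to 16 UMIs in those labelled KO and 1 to 3 UMIs in those labelled WT. They were 5.06% of members labelled KO (1.40 to 12.5) and 20.0% of members labelled WT (4.33 to 48.1), intervals that overlap. Scrublet scored 2 of the 3 labelled WT among the likeliest doublets of their library and none of the 4 labelled KO.

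The lymphatic members also differed in rule markers. These were left out of the clustering but chose the members, so their values are a description. Cldn5, the tight junction claudin of endothelium, stood at 1707 CPM in them, against 151, 68.4 and 5.98 CPM in the 3 blood-vessel sub-clusters described next. Plvap, which forms the diaphragms of fenestrated vessels, stood at 357 CPM in lymphatic members and at 1583 to 3096 CPM in the blood-vessel sub-clusters. The rule marker Vwf and the pan-endothelial gene Flt1, which is outside the rule, had 0 UMIs in the lymphatic members.

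**Figure D2:**
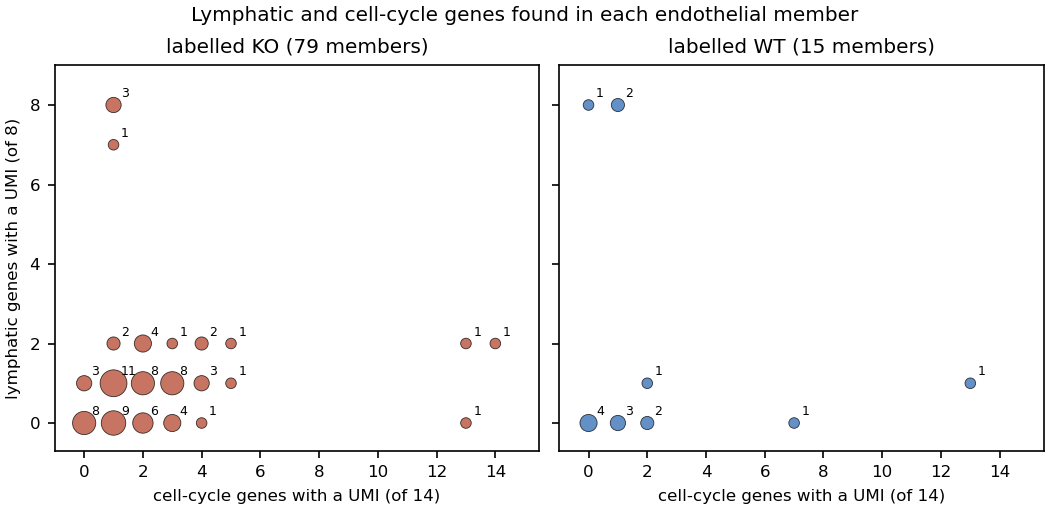
Number of lymphatic genes (of 8, vertical axis) and of cell-cycle genes (of 14, horizontal axis) with at least 1 UMI in each member, labelled KO at left and labelled WT at right. Each point is a combination, with its number of members beside it: 4 members labelled KO and 3 labelled WT held 7 or more lymphatic genes, and the cycling members were others.

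Clustering of all 94 members on 1000 variable genes, without rule markers, haemoglobin, immunoglobulin or sex genes, gave 4 sub-clusters. Their leading genes define them and are not results. The division is unstable: it gave 6 sub-clusters at resolution 1.0 in place of 0.5, and 3 with the members labelled KO alone, whose assignment matched with an adjusted Rand index of 0.234. Sub-cluster 2, with 37 members labelled KO and 4 labelled WT, was venous-like: Selp (P-selectin) stood at 2087 CPM, against 103 CPM or less in every other sub-cluster, and Ackr1 at 354 CPM, against 5.98 CPM or less. Sub-cluster 3, with 14 labelled KO and 7 labelled WT, was arterial-like, led by the connexin genes Gja5 and Gja4 and by Sema3g and Cxcl12. Gja4 stood at 1046 CPM there and at 13.7 CPM in the venous-like cells. Sub-cluster 1, with 24 labelled KO and 1 labelled WT, was capillary-like by Gpihbp1, which carries lipoprotein lipase to the capillary lumen, at 526 CPM, but was also led by Esm1, a tip-cell gene, at 592 CPM. Its name rests on 1 leading marker, and the capillary list was as high in the arterial-like cells, at 6192 CPM against 6108 CPM in sub-cluster 1. Sub-cluster 4 held the 7 lymphatic members.

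Receptor and ligand genes differed in how far they varied among the blood-vessel sub-clusters. Tek, Tie1 and Pdgfb had overlapping intervals in all 3. Dll4, a Notch ligand of arteries and tip cells, stood at 424 CPM in the arterial-like, 193 in the capillary-like and 108 in the venous-like cells. Efnb2, the ephrin that marks arteries, stood at 652, 254 and 53.0 CPM in the same order. Dll4 and Efnb2 are on the arterial list that named the arterial-like cells, so their order is a description. Vegfc, the growth factor of lymphatics, stood at 263 CPM in arterial-like cells and at 60.4 CPM or less in the other sub-clusters. Angpt2, which destabilises vessels, stood at 169 CPM in capillary-like, 83.8 in venous-like, 5.98 in arterial-like and 218 in lymphatic cells. Apln was concentrated in venous-like cells (238 CPM), where 16 of 41 held a UMI, and 5 members held 75.5% of its UMIs labelled KO. Its receptor Aplnr was found in capillary-like (628 CPM) and venous-like cells (525 CPM) and hardly in arterial-like ones (23.9 CPM). Aplnr is on the venous list that named the venous-like cells, so its order is a description too. The immediate early and heat shock genes, which dissociation of tissue is known to raise, summed to 32133 CPM in arterial-like cells, against 10262 CPM in venous-like and 11932 CPM in capillary-like cells. Their part in the division was not tested.

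**Figure D3:**
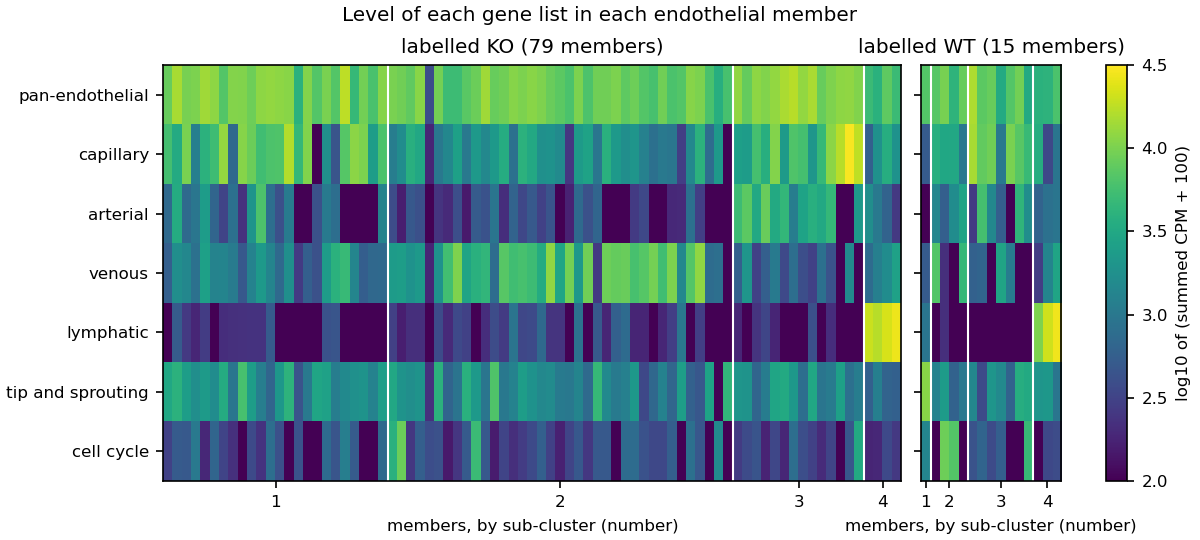
Summed level of 7 gene lists, as log10 of CPM plus 100 (colour), in each endothelial member (columns), labelled KO at left and labelled WT at right, ordered by sub-cluster number (1 capillary-like, 2 venous-like, 3 arterial-like, 4 lymphatic-like). White lines separate sub-clusters; the lymphatic list is high in the 4 and 3 members of sub-cluster 4, and the venous list in sub-cluster 2.

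Dividing cells were few. Of the 14 cell-cycle genes, 3 members labelled KO held 13 or 14 and 2 labelled WT held 7 and 13, while no other member held more than 5. All 5 fell in the venous-like sub-cluster. The 3 labelled KO held 270, 135 and 92 UMIs of the list and together 68.2% of its UMIs in that library. The 2 labelled WT held 74 and 13, and the one with 13 UMIs was a shallow barcode with 15.9% mitochondrial UMIs that Scrublet scored among likely doublets. Mki67, a proliferation marker, had UMIs in 3 members labelled KO and 2 labelled WT. They were 3.80% of members labelled KO (0.790 to 10.7) and 13.3% of members labelled WT (1.66 to 40.5).

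Between the libraries, 1901 genes reached a mean of 100 CPM. Of these, 192 (10.1%) were at least 2-fold higher in members labelled KO and 259 (13.6%) at least 2-fold lower, and the median log2 ratio was -0.10. Each had a UMI in members labelled KO, and 10 had 0 UMIs in members labelled WT. In sums over cells, fewer cells of a kind and less RNA per cell cannot be told apart. Ratios within the venous-like and arterial-like cells are given for some of the genes below. Counts per gene list are to be set against 10.1% higher and 13.6% lower. A count near these shares is not read as a result about its list.

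Venous and leukocyte adhesion genes went in both directions. Of the 7 venous genes that reached 100 CPM, 3 were at least 2-fold higher in members labelled KO and 1, Nr2f2, was lower. Among all 1901 genes 10.1% were higher and 13.6% lower. The median log2 ratio of the list was 0.67. Nr2f2 stood higher in lymphatic cells (675 CPM) than in venous-like (239), capillary-like (60.4) or arterial-like ones (35.9). Lymphatic cells were 5.06% of members labelled KO and 20.0% of those labelled WT. Their part in the ratio of Nr2f2 was not tested. Selp had 1231 UMIs in members labelled KO (1349 CPM) and 12 in members labelled WT (215 CPM), a ratio of 6.28 (3.58 to 12.2). It was found in 39 of 79 members labelled KO and 4 of 15 labelled WT, and 75% of its 12 UMIs labelled WT came from 1 member. At 1000 UMIs per cell Selp was in 32.5% of 77 members labelled KO (22.2 to 44.1) and 7.14% of 14 labelled WT (0.181 to 33.9). These intervals overlap. The share of epithelial barcodes was 0.333% in either library. Sele, E-selectin, stood at 252 CPM in members labelled KO and at 35.8 CPM, 2 UMIs, in members labelled WT, a ratio of 7.04 (1.93 to 58.5). Aplnr stood at 448 CPM in members labelled KO and 107 CPM in members labelled WT (4.17, 1.90 to 11.4). It stood at 628 CPM in capillary-like, 525 in venous-like, 23.9 in arterial-like and 0 CPM in lymphatic cells. Arterial-like and lymphatic cells were 17.7% and 5.06% of members labelled KO, and 46.7% and 20.0% of those labelled WT. The part of this mix in the ratio of Aplnr was not tested. Ackr1 went the other way from Selp, Sele and Aplnr, at 204 CPM in members labelled KO and 394 CPM in members labelled WT (0.518, 0.332 to 0.846). Of its 22 UMIs in the library labelled WT 95.4% came from 1 member. Icam1, the ligand of leukocyte integrins, stood at 447 CPM in members labelled KO and at 250.5 CPM in members labelled WT (1.78, 1.05 to 3.29). Madcam1, the gut homing receptor for lymphocytes, stood at 218 CPM and 250.5 CPM in members labelled KO and WT, which its interval of 0.507 to 1.62 does not separate. The venous-like cells were 46.8% of members labelled KO and 26.7% of members labelled WT. Within them the ratio of Selp was 4.43 (2.40 to 9.27) and that of Sele 3.99 (1.09 to 33.1), with 4 cells labelled WT, 2 of them cycling. Both genes are on the venous list that named these cells, so these ratios are not independent of the division.

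Among chemokine and cytokine genes, 2 of the 6 that reached 100 CPM were at least 2-fold higher in members labelled KO and 2 lower. The shares of all 1901 genes were 10.1% higher and 13.6% lower. Csf3, granulocyte colony-stimulating factor, had 319 UMIs in 21 members labelled KO (350 CPM) and 0 UMIs in members labelled WT. Against a floor of 3 counts per library its ratio was 6.51, with a lower interval bound of 5.27. Within the venous-like cells, which held all of its UMIs, the same floor gave a ratio of 3.89. At 1000 UMIs per cell Csf3 was in 14.3% of 77 members labelled KO and in 0 of 14 labelled WT, which allows a share of up to 23.2%, so a difference in this share was not detectable. Each of the 21 members was in the venous-like sub-cluster, and 5 of them held 64.3% of the UMIs. Csf3 is a leading gene of that sub-cluster, so its placing there is a description. Its level in the fibroblast gate was 100.1 CPM in the library labelled KO, where 89 barcodes were gated, and 0 in that labelled WT, where 9 were. Cxcl1, a neutrophil chemokine, stood at 505 CPM in members labelled KO and 53.7 CPM, 3 UMIs, in members labelled WT (9.41, 3.20 to 45.8). Without the collagen, keratin and Ptprc limits its log2 ratio was 0.11, against 3.23 with them. In the epithelial gate it stood at 173 CPM labelled KO and 301 CPM labelled WT, the opposite order. At 1000 UMIs per cell Cxcl1 was found in 22.1% of members labelled KO and 21.4% of members labelled WT, a share that does not follow the CPM, so no order is read from it. Cxcl12, a chemokine of arterial cells here, stood at 217 CPM in members labelled KO and 930 CPM in members labelled WT (0.233, 0.171 to 0.323). Arterial-like cells were 17.7% of members labelled KO and 46.7% of members labelled WT, and within them the ratio was 0.457 (0.322 to 0.661). Cxcl12 is a leading gene of these cells, so this ratio is not independent of the division. Ccl2 had 12 UMIs in members labelled KO and 14 in members labelled WT, 92.9% of the 14 in 1 member, and without the highest Scrublet scores its log2 ratio was -0.71, against -4.25 with them.

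Endothelial transcription factors included large ratios in both directions. Sox7 had 333 UMIs in 61 members labelled KO (365 CPM) and 2 UMIs in 1 member labelled WT (35.8 CPM), a ratio of 10.2 (2.80 to 84.5). Sox18, of the same SoxF family, stood at 156 CPM in members labelled KO and 537 CPM in members labelled WT (0.290, 0.194 to 0.445), and Sox17 at 160 CPM and 250.5 CPM in members labelled KO and WT (0.639, 0.369 to 1.20). At 1000 UMIs per cell Sox7 was in 24.7% of members labelled KO (15.6 to 35.8) and in 0 of the 14 labelled WT (up to 23.2%). Sox18 was in 13.0% (6.41 to 22.6) and 35.7% (12.8 to 64.9) of members labelled KO and WT. For both genes the intervals of this share overlap. Within the arterial-like cells the ratio of Sox18 was 0.298 (0.172 to 0.533), and within the venous-like 0.316 (0.152 to 0.760). Klf2, induced by blood flow, stood at 1933 CPM in members labelled KO and 1271 CPM in members labelled WT (1.52, 1.20 to 1.96), and the ETS factor Fli1 at 249.9 CPM and 429.5 CPM in members labelled KO and WT (0.582, 0.381 to 0.927). Of the 12 factors that reached 100 CPM, 1 was at least 2-fold higher and 2 lower in members labelled KO. These counts lie near the shares of all 1901 genes, 10.1% higher and 13.6% lower.

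The VEGF and angiopoietin receptors mostly differed by less than 2-fold. Flt1 stood at 1400 CPM in members labelled KO and 1199 CPM in members labelled WT (1.17, 0.913 to 1.52), Tek at 142 and 161 CPM in members labelled KO and WT (0.885, 0.452 to 1.98), and Tie1 at 158 and 215 CPM in members labelled KO and WT (0.735, 0.408 to 1.46). Nrp1, a co-receptor, stood at 198 CPM in members labelled KO and 429.5 CPM in members labelled WT (0.462, 0.301 to 0.740). Angpt1 had 0 UMIs in either library's members, and Vegfa had 8 UMIs in members labelled KO and 2 in members labelled WT. In the Notch list 1 of 4 genes reaching 100 CPM was higher, Dll4, at 180 CPM in members labelled KO and 53.7 CPM, 3 UMIs, in members labelled WT (3.35, 1.13 to 16.4). Of the 9 guidance and ephrin genes 1 was higher, Robo4 (3.19, 1.07 to 15.6), and 1 lower, Nrp1. That is near the shares of all 1901 genes, 10.1% higher and 13.6% lower. In the BMP and TGF-beta list Acvrl1, a BMP receptor of endothelium, had a ratio of 2.54 with an interval that includes 1 (0.974 to 9.44). Id3, a target of BMP signalling, was the gene at least 2-fold lower, at 395 CPM in members labelled KO and 823 CPM in members labelled WT (0.479, 0.352 to 0.666).

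Of the 13 vessel basement membrane and matrix genes that reached 100 CPM, Col18a1 was at least 2-fold higher in members labelled KO, and Fn1 and Lama4 were lower. These counts are near the 10.1% higher and 13.6% lower of all 1901 genes. Col4a1 and Col4a2, the collagen IV chains, had ratios of 1.00 (0.859 to 1.18) and 1.03 (0.840 to 1.28). Col4a1 stood at 2950 CPM in members labelled KO, with a UMI in 77 of 79, and at 2935 CPM in members labelled WT, with a UMI in 14 of 15. Sparc, a collagen-binding matricellular protein, stood at 5038 CPM in members labelled KO and 2648 CPM in members labelled WT (1.90, 1.61 to 2.26). Within the arterial-like cells its ratio was 2.47 (1.89 to 3.30), and within the venous-like 0.967 (0.781 to 1.21). Col18a1, the source of endostatin, stood at 503 CPM in members labelled KO and 250.5 CPM in members labelled WT (2.01, 1.19 to 3.70). Fn1, fibronectin, stood at 148 CPM in members labelled KO and 2219 CPM in members labelled WT (0.0667, 0.0519 to 0.0858). Of its 124 UMIs in the library labelled WT 121 came from the 3 lymphatic members, and 58.1% from 1 cell. In the library labelled KO 75 of 135 came from the 4 lymphatic members. Without the lymphatic members of both libraries the log2 ratio of Fn1 was -0.04, against -3.91 with them.

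Other large ratios rested on few members. Scn3a, Tnc, Mmrn1, Reln and Cp, with Fn1 among the 10 genes lowest in members labelled KO, had most of their UMIs in lymphatic members, which were 3 of 15 labelled WT and 4 of 79 labelled KO. The lymphatic list summed to 1015 CPM in members labelled KO and 4384 CPM in members labelled WT (0.232, 0.201 to 0.268). Scrublet scored 2 of the 3 lymphatic members labelled WT as likely doublets, and without the highest scores the log2 ratios were -1.43 for Mmrn1, against -2.84 with them, -0.91 for Reln, against -3.44, and -0.49 for Cp, against -3.29. Jchain had a ratio of 65.0, of which 98.6% of the UMIs lay in the immunoglobulin-rich barcode, and without the 3 barcodes named above its log2 ratio was -0.30. S100a8, a neutrophil granule gene, stood at 9.86 CPM in members labelled KO and 322 CPM in members labelled WT, and at 43.0 and 240 CPM in the epithelial gates of the libraries labelled KO and WT. The neutrophil list as a whole summed to 40.6 CPM in members labelled KO and 555 CPM in those labelled WT, with 7 of its 8 genes detected in members labelled KO and 3 in those labelled WT. At 1000 UMIs per cell S100a8 was in 21.4% of members labelled WT and 19.0% of its epithelial barcodes. The part of RNA from other cells in it was not tested.

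The capillary list summed to 3213 CPM in members labelled KO and 4939 CPM in members labelled WT (0.651, 0.575 to 0.739). Fabp4, a fatty acid carrier of capillaries, stood at 1845 CPM in members labelled KO and 3364 CPM in members labelled WT (0.548, 0.471 to 0.641). By sub-cluster it stood at 4023 CPM in arterial-like, 3492 in capillary-like, 1349 in lymphatic and 943.5 in venous-like cells. In the same order these were 17.7%, 30.4%, 5.06% and 46.8% of members labelled KO, and 46.7%, 6.67%, 20.0% and 26.7% of those labelled WT. The part of this mix in the ratios of capillary genes was not tested. Cd36, a fatty acid receptor, had 18 UMIs in 9 members labelled KO and 15 UMIs in 6 members labelled WT (0.0735, 0.0350 to 0.157). By sub-cluster Cd36 stood at 107.6 CPM in arterial-like, 48.3 in capillary-like, 39.7 in lymphatic and 8.55 in venous-like cells. It stood at 0 in the fibroblast gate of either library, and in the immune gate at 7.88 CPM labelled KO and 29.6 CPM labelled WT. Gpihbp1 stood at 173 CPM in members labelled KO and 340 CPM in members labelled WT (0.509, 0.316 to 0.869), whereas the water channel Aqp1 stood at 720.1 CPM in members labelled KO and 465 CPM in members labelled WT (1.55, 1.05 to 2.39). Of the tip and sprouting genes Mcam was higher (3.13, 1.57 to 7.30), and Angpt2 (0.434, 0.230 to 0.906) and Cxcr4 (0.245, 0.128 to 0.507) were lower. Cxcr4 is also used by leukocytes and stood at 118 CPM in the immune gate labelled KO.

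**Figure D4:**
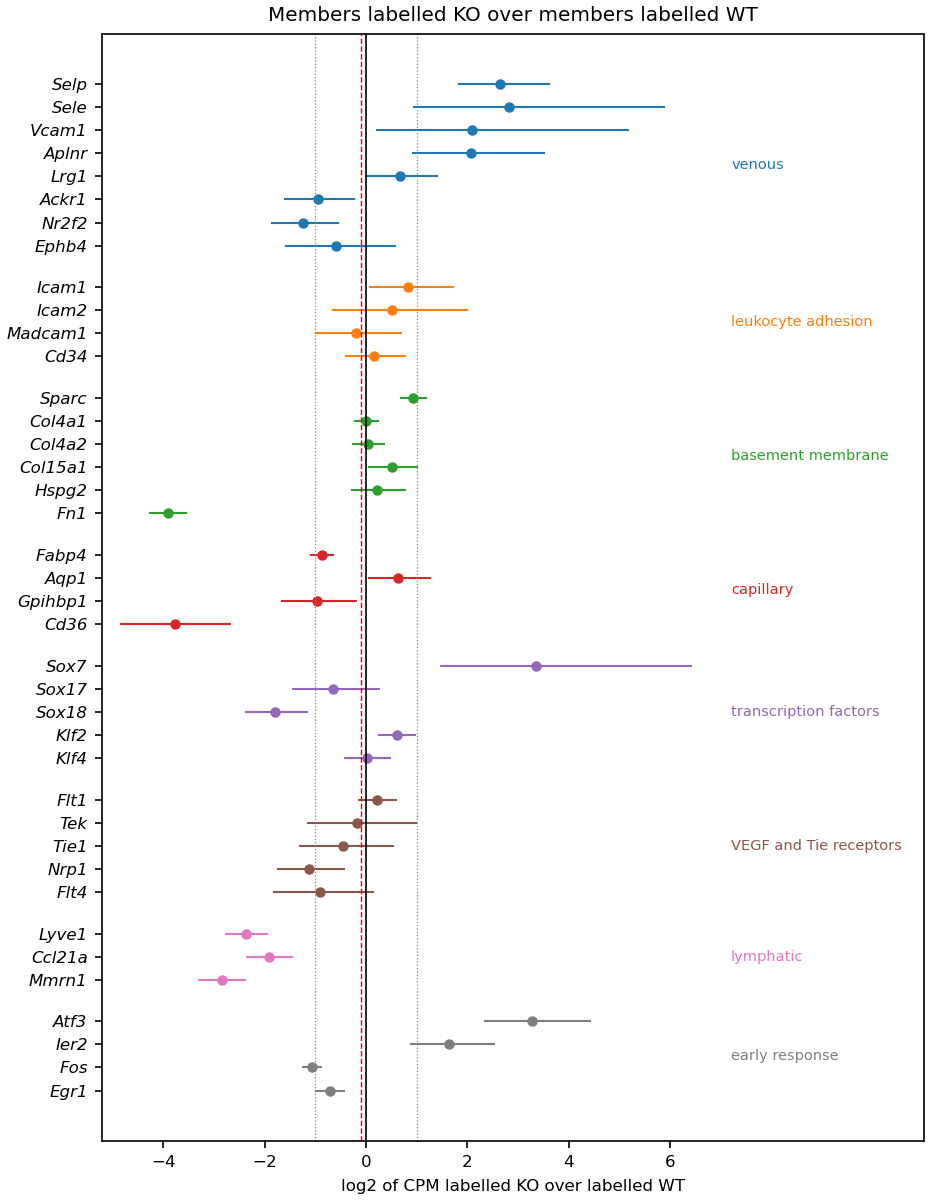
Log2 ratio of CPM in members labelled KO over members labelled WT (horizontal axis) for genes of 8 lists, with exact 95% counting intervals. The solid line marks equal levels, dotted lines 2-fold, and the dashed line the median of all 1901 genes at -0.10; Selp, Sele and Sox7 lie to the right of 2-fold, and Fn1, Cd36 and the lymphatic genes to the left.

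Early response genes differed between the libraries in no single direction. Atf3 stood at 1561 CPM in members labelled KO, with a UMI in 70 of 79, and at 161 CPM in members labelled WT, with a UMI in 5 of 15 (9.69, 5.09 to 21.2). In the epithelial gate it stood at 1463 CPM labelled KO and 1358 CPM labelled WT. Without the collagen, keratin and Ptprc limits the log2 ratio of Atf3 was 1.08, against 3.28 with them. Within the venous-like cells its ratio was 9.27 (3.16 to 45.0), and within the arterial-like 18.1 (6.15 to 88.1). Ier2 was higher (3.11, 1.84 to 5.72), while Fos stood at 2420 CPM in members labelled KO and 5064 CPM in members labelled WT (0.478, 0.422 to 0.543) and Dusp1 was likewise lower (0.491, 0.394 to 0.619). Fos and Dusp1 varied with the sub-cluster: Fos stood at 5344 CPM in arterial-like and 6271 CPM in lymphatic cells, against 1655 CPM in capillary-like and 1721 CPM in venous-like cells. The arterial-like and lymphatic cells were 18 of 79 members labelled KO and 10 of 15 labelled WT. Within the arterial-like cells the ratio of Fos was 0.745 (0.619 to 0.901) and that of Dusp1 0.826 (0.584 to 1.20), and within the venous-like 0.268 (0.221 to 0.327) and 0.409 (0.278 to 0.626). Fos was also lower in the epithelial gate labelled KO, at 1690 CPM, than in that labelled WT, at 2364 CPM.

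Antigen presentation and interferon genes gave few ratios beyond 2-fold. Of 5 MHC class I genes that reached 100 CPM, 0 passed 2-fold in either direction, and B2m, the common light chain, stood at 1427 CPM in members labelled KO and 2219 CPM in members labelled WT (0.643, 0.535 to 0.779). MHC class II genes had 434 UMIs in members labelled KO (476 CPM) and 14 in members labelled WT (250.5 CPM), but 272 of the 434 lay in 1 member that Scrublet scored among likely doublets. Without it the members labelled KO stood at 182 CPM, below those labelled WT. Without the member labelled WT that held 10 of the 14, those labelled WT stood at 76.6 CPM, so no direction is read. Of 3 interferon genes that reached 100 CPM, Iigp1 was lower (0.297, 0.185 to 0.501), and 0 of 4 hypoxia and glycolysis genes passed 2-fold. Of the junction genes 1 of 9 passed it, Jam2, lower with an interval that includes 1 (0.478, 0.246 to 1.04), and of the caveolae and transport genes 1 of 8, Cavin2 (0.384, 0.265 to 0.573). Both counts lie near the 13.6% of all 1901 genes that were lower. Cavin2 stood at 1568 CPM in lymphatic, 365 in arterial-like, 205 in capillary-like and 113 CPM in venous-like cells. Lymphatic cells were 5.06% of members labelled KO and 20.0% of those labelled WT. Their part in the ratio of Cavin2 was not tested.

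Ecm1 itself stood in members labelled KO near its level in the epithelial and immune gates of that library, and below the fibroblast gate. It had 42 UMIs in 26 of 79 members labelled KO (46.0 CPM, 33.2 to 62.2) and 1 UMI in 15 members labelled WT (17.9 CPM, 0.453 to 99.7). The ratio of 2.57 had an interval of 0.437 to 104, so a difference was not detectable at this depth. In the fibroblast gate Ecm1 stood at 226 CPM labelled KO and 396 CPM labelled WT. In the epithelial gate it stood at 41.6 and 33.8 CPM labelled KO and WT, and in the immune gate at 51.8 and 45.5 CPM.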

How the data were processed

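A pair of single-cell libraries of mouse colon tumour tissue were analysed, 1 per genotype, from the authors' deposited matrices of raw UMI counts, which were not normalized. Per the file headers the matrices were made with Cell Ranger 7.2.0, and GRCm39 was the reference build, per the submitters' processing notes. The labels' protocol describes bulk RNA extraction, so the capture chemistry is unknown. The matrices list 55357 genes.

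Members and gene lists were chosen with earlier results of these data known. UMIs were summed over members per library and scaled to counts per 1e6 (CPM) of those sums. Genes at a mean of 100 CPM or more were compared between libraries. Sums carry exact Poisson, ratios exact conditional binomial and shares Clopper-Pearson 95% intervals. A library at 0 UMIs was given a floor of 3 counts. Between gates, genes at 100 CPM in members or another gate entered. With 1 library per genotype no test was made, and what differs between animals is not measured. The script computing the ratios was tested on simulated data.

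Genes were named by rule: the rule markers and Ecm1; the 15 genes furthest above the other gates; the 10 highest and 10 lowest between libraries, by the interval bound nearest 1, without mitochondrial, ribosomal, haemoglobin, antigen receptor, sex and predicted genes; list members with the highest levels and the extreme ratios; and 8 leading genes per sub-cluster. Sub-clusters used scanpy 1.11.5 with 1000 variable genes, 15 principal components, 10 neighbours and Leiden resolution 0.5. Scrublet's automatic threshold marked 0.0456% and 0% of barcodes labelled KO and WT, which is no working call, so the highest scores, at 0.8% per 1000 barcodes, were left out only as an alternative. For shares of cells with a UMI each member was thinned to 1000 UMIs, leaving out 2 shallower members labelled KO and 1 labelled WT, and 300 epithelial barcodes per library were thinned likewise. Python 3.11.15, numpy 2.4.6, scipy 1.17.1, pandas 2.3.3, anndata 0.12.19, igraph 0.11.9 and matplotlib 3.10.9 were used. Upstream sequence came from RefSeq windows of build GRCm38.p6, not the build of the counts, so no coordinates were carried over.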

Additional observations from a re-analysis of the deposited data

How the results depend on the processing

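Dropping the collagen, keratin and Ptprc limits gave 191 members labelled KO and 26 labelled WT, with 98 genes at least 2-fold higher and 93 lower between libraries, and 47 genes 2-fold above every other gate in place of 290. A minimum mean of 50 CPM gave 410 genes higher and 687 lower, 200 CPM gave 95 and 91, and no filter gave 772 and 8581, the last because genes at 0 labelled WT were set against the floor. The log2 ratio of Jchain turned to -0.18 with at least 4 rule markers, to -0.30 without the 3 barcodes rich in another cell type's genes and to -0.60 within arterial-like cells. That of S100a8 turned to 0.0899 with at least 2 rule markers, and that of Fn1 to 0.89 within arterial-like cells. That of Psmc4 was -1.07 within lymphatic members. Members labelled WT held 0 UMIs of Psmc4, so this value is set by the floor of 3 counts and is not read as a reversal. Over the highest other gate, log2 ratios of Hba-a2, Hbb-bt, Hba-a1 and Hbb-bs turned to -2.43, -2.39, -1.28 and -2.09 with the keratin and collagen limits at 5 per 10000 and to -2.42, -2.38, -1.28 and -1.98 without those 3 barcodes. Ccl21a turned to -0.97 without lymphatic members, which hold all its UMIs, so this value too is set by the floor. The settings that leave out lymphatic or other-cell-rich members, leave out the member with most MHC class II UMIs, or look within sub-clusters, were chosen after seeing the data. All other counts stayed within 1.5 times, and the ratio of Ecm1 ranged from 2.04 to 6.14. Of the causes of these shifts, those without a value above were not tested. No paired analysis was possible because each genotype has 1 library. With 55882 UMIs labelled WT, ratios under 2-fold are mostly within counting error.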

Other observations

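Ptn, a heparin-binding growth factor, had 351 UMIs in 16 members labelled KO and 0 in members labelled WT, with 92.0% of them in 5 members, and stood at 476 CPM in the epithelial gate labelled KO and 430.4 CPM in that labelled WT. Bpgm, an enzyme of red-cell metabolism, had 342 UMIs in 58 members labelled KO and 1 UMI labelled WT, with a log2 ratio of 4.39, or 1.62 without the collagen, keratin and Ptprc limits, and stood at 169.5 CPM in the fibroblast gate labelled KO and 190.3 CPM in that labelled WT. Psmc4, a proteasome subunit, had 200 UMIs labelled KO and 0 labelled WT, and was also higher in the epithelial (156 and 77.3 CPM) and immune gates (129 and 46.3 CPM) of the library labelled KO than of that labelled WT. Slpi, a protease inhibitor, had 337 UMIs in 4 venous-like members labelled KO and 2 UMIs in members labelled WT.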
